A study of Rattus norvegicus with 10 samples.

Results

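Kupffer cells are the resident macrophages of the liver, lodged in the sinusoids, where they clear particles, bacteria and ageing blood cells from portal blood. Their survival depends on the CSF1 receptor, and the transcription factor PU.1 drives much of the gene expression that they share with other myeloid cells. Some genes, such as Clec4f in rodents, mark the resident cells in liver, whereas Fc receptor adaptors, beta2 integrins and the phagocyte oxidase are used by myeloid cells in general.

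The list holds 33 named genes, chosen with earlier results of these data known. Of them 27 were measured by a probe set annotated to that gene alone, out of 14217 genes measured in all. Each gene was read through its brightest probe set, the one with the highest mean over all 10 arrays. Of the 27 measured members, 7 were counted as resident markers (Clec4f, Cd5l, Cd163, Adgre1 and the C1q chains) and 20 as general myeloid genes. Vsig4, Timd4, Marco, Spi1, Msr1 and Slc11a1 were not analysed here, so the resident class lacks several of its usual markers and PU.1 itself (Spi1) has no value.

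The 10 samples are liver RNA of female Harlan Sprague-Dawley rats, 5 from rats dosed by gavage with indole-3-carbinol (I3C) at 300 mg per kg in corn oil and 5 from rats given the corn oil vehicle alone (0 mg per kg). Per the labels both groups were gavaged on 5 days per week for 13 weeks, although the series' own design text describes a longer study. I3C comes from cruciferous vegetables, and its acid condensation products are ligands of the aryl hydrocarbon receptor. The comparison asks how liver transcripts differ under the dose. Values are log2 expression from RMA, which combines the probes of a probe set into 1 value and evens out the arrays. A difference of 1 is a doubling, and array medians lay between 6.21 and 6.29. All 7 measured hepatocyte markers lay at or above the 99.7th percentile of probe sets. The labels number no animals, so a p-value here reflects how far these samples scatter, whatever their origin.

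The promoter windows of 4 members are shown because PU.1 is a lineage factor of macrophages. Whether PU.1 has a part in their differences was not tested. Each runs from 250 bases before to 50 bases after the start of the gene (RefSeq, GRCr8, 5′ to 3′ on the strand of the gene), and capitals mark the core GAGGAA of the PU.1 motif or its reverse complement TTCCTC. Cd5l (chr2:175088665-175088964, plus strand) and C1qa (chr5:154419884-154420183, minus strand) fell in the I3C livers, Cd68 (chr10:54882392-54882691, minus strand) was lower without passing the test, and Lyz2 (chr7:54797962-54798261, minus strand) was higher without passing it.
Cd5l: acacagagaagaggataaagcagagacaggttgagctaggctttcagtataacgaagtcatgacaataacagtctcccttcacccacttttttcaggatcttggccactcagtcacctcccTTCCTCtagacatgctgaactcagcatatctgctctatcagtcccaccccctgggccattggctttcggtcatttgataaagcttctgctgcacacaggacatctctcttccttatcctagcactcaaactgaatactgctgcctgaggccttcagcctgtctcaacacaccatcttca
C1qa: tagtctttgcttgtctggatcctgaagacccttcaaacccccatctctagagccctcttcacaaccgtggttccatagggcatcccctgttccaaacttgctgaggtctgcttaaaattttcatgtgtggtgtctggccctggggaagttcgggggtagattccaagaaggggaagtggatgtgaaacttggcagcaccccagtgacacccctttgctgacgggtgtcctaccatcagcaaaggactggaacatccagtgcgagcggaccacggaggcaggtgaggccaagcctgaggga
Cd68: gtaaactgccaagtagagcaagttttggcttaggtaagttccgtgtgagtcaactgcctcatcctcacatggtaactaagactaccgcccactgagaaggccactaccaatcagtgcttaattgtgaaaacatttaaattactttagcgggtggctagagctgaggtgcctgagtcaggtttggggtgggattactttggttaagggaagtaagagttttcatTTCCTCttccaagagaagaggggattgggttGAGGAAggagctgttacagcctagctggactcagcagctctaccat
Lyz2: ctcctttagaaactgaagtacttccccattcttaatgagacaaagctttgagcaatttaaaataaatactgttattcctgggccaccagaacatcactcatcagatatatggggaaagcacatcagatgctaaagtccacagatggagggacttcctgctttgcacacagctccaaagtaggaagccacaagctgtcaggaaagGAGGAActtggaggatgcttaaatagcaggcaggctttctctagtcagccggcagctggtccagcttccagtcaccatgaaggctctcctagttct
The core starts 129 bases before the gene's start in Cd5l, 46 before it in Lyz2, and at 27 before and 4 after it in Cd68. These letters are not in the C1qa window. A window was found for 19 of the 27 measured members, and 14 of these (73.7%) hold the core on either strand, against 9239 of 33469 windows of the same length over all genes (27.6%). GCGTG, the core of the aryl hydrocarbon receptor element, searched on both strands as GCGTG and CACGC, lies in 2 of the 19 (10.5%), Csf1r and Ptprc, against 29.7% of all windows. Of the members that fell, Cd5l holds the PU.1 core, C1qa does not, and Aif1 and Fcer1g have no window here. Members that were lower without passing occur with and without the core. Of those that were higher, Lyz2 and Cd14 hold it and Ncf1 does not. The windows of all genes were not matched to those of the members in base composition, so neither share is a test of enrichment or depletion. A match is a string of letters in a window and says nothing of binding.

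Most macrophage genes were slightly lower in the I3C livers, and few passed the test. Of the 27 members 24 had a lower mean under I3C and 3 a higher one, whereas 51.4% of all genes had a lower mean. Past limma's test, at a Benjamini-Hochberg adjusted p under 0.05 over the whole table of 31042 probe sets, 4 members fell, Cd5l, C1qa, Aif1 and Fcer1g, which is 14.8% of the members where 3.11% of all genes fell. No member rose (0 of 27, limma), where 3.32% of all genes rose and 6.43% passed in either direction. At an unadjusted p under 0.05, 16 members were lower and 1, Lyz2, was higher, against 10.2% and 9.62% of all genes. The median difference of the members was -0.23, with a range of -0.52 to 0.41, and that of all genes was -0.0039 on the log2 scale. In 7 members every I3C array lay below every vehicle array, a pattern that 4.07% of all genes show, and in 0 members every I3C array lay above, against 4.61%. The members were chosen with earlier results of these data known, so none of these shares is a test of the list. In bulk liver RNA, fewer macrophages and less of each transcript per macrophage cannot be told apart.

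**Figure D1:**
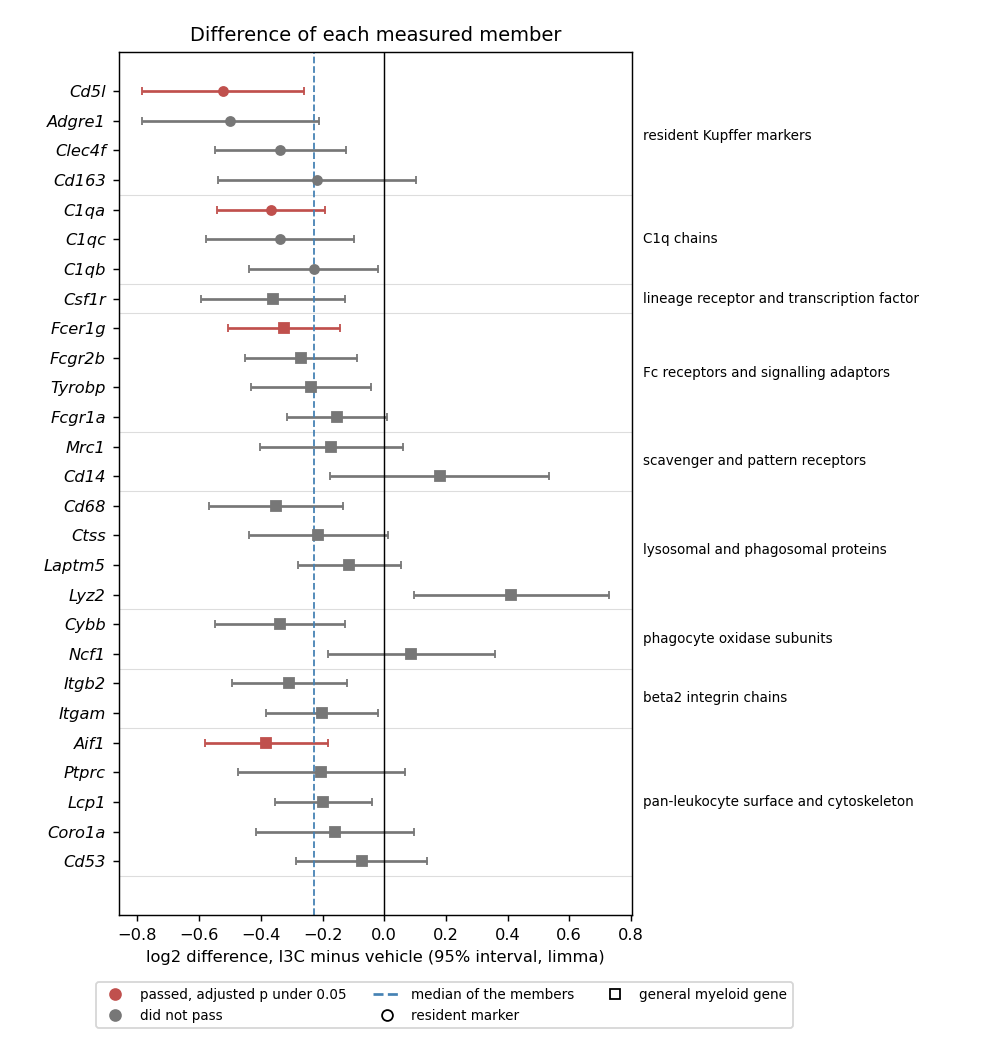
Log2 difference (I3C minus vehicle) of each of the 27 measured members with its 95% interval from limma, grouped by role. Circles are resident markers and squares general myeloid genes. Red marks the 4 genes past the test, and the dashed line is the members' median of -0.23. Only Lyz2, Cd14 and Ncf1 lie right of 0.

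The 7 resident markers were all lower in the I3C livers, 2 of them past the test, with a median of -0.34. Cd5l, a secreted scavenger protein that macrophages make to support their own survival, measured 10.09, 10.33, 10.14, 10.15 and 9.75 in I3C livers, against 10.72, 10.89, 10.32, 10.68 and 10.46 in vehicle livers. The groups met at 1 array each, I3C 2 lying just above vehicle 3. Cd5l fell by 0.52 ± 0.12 (SE, n = 5 per group, limma adjusted p = 0.0256), a 1.44-fold lower level. Its second, much dimmer probe set gave the same call, at 4.47 ± 0.21 in I3C and 5.23 ± 0.48 in vehicle livers (SD, n = 5 each). That was a difference of -0.76 ± 0.19 (SE, limma adjusted p = 0.0414), with both means below the median of every array. With 1 array left out the brighter probe set kept its call in 4 of 10 fits, and lost it without vehicle 1 (adjusted p = 0.0677), vehicle 2 (0.0584), vehicle 4 (0.0611), I3C 1 (0.058), I3C 4 (0.0516) or I3C 5 (0.0567).

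Clec4f, the C-type lectin that marks rodent Kupffer cells, measured 11.13, 11.13, 10.94, 11.17 and 10.69 in I3C livers, against 11.45, 11.47, 11.22, 11.21 and 11.40 in vehicle livers. The groups did not overlap, yet the difference of -0.34 ± 0.10 (SE, n = 5 per group) missed the threshold (limma adjusted p = 0.0749). Adgre1, which encodes the F4/80 antigen of mature macrophages, measured 7.33, 7.53, 7.47, 7.65 and 7.17 in I3C livers, against 7.82, 8.37, 7.63, 8.03 and 7.80 in vehicle livers. The highest I3C liver reached just above the lowest vehicle liver. Its difference of -0.50 ± 0.13 lay at the threshold (limma adjusted p = 0.0506), and it passed when vehicle 3 was left out (adjusted p = 0.0342) and when vehicle 5 was (adjusted p = 0.0423). Cd163, the receptor that takes up haptoglobin-bound haemoglobin, averaged 8.08 ± 0.26 in I3C and 8.30 ± 0.29 in vehicle livers (SD, n = 5 each). The groups overlapped widely, and the 95% interval of its difference ran from -0.54 to 0.10.

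The 3 chains of C1q, the recognition molecule of the classical complement pathway, which macrophages supply in most tissues, were lower together. C1qa measured 10.72, 10.75, 10.69, 10.79 and 10.50 in I3C livers, against 11.10, 11.16, 10.90, 10.93 and 11.20 in vehicle livers. Every I3C value lay below every vehicle value. C1qa fell by 0.37 ± 0.08 (SE, n = 5 per group, limma adjusted p = 0.0197), a 1.29-fold lower level and the smallest adjusted p among the members. The call was kept in 8 of 10 fits with 1 array left out, and lost without vehicle 1 (adjusted p = 0.0525) or I3C 5 (0.0516). C1qb averaged 9.96 ± 0.20 in I3C and 10.19 ± 0.10 in vehicle livers (SD, n = 5 each). The groups only just parted, with I3C 3 and vehicle 4 both at 10.09 when rounded. The C1qb difference of -0.23 ± 0.10 did not pass (limma adjusted p = 0.249). C1qc averaged 9.90 ± 0.15 in I3C and 10.24 ± 0.23 in vehicle livers and differed by -0.34 ± 0.11 (limma adjusted p = 0.122), with the highest I3C liver just above the lowest vehicle liver. I3C 5 was the lowest of its group in all 3 chains, at 10.50, 9.60 and 9.64.

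**Figure D2:**
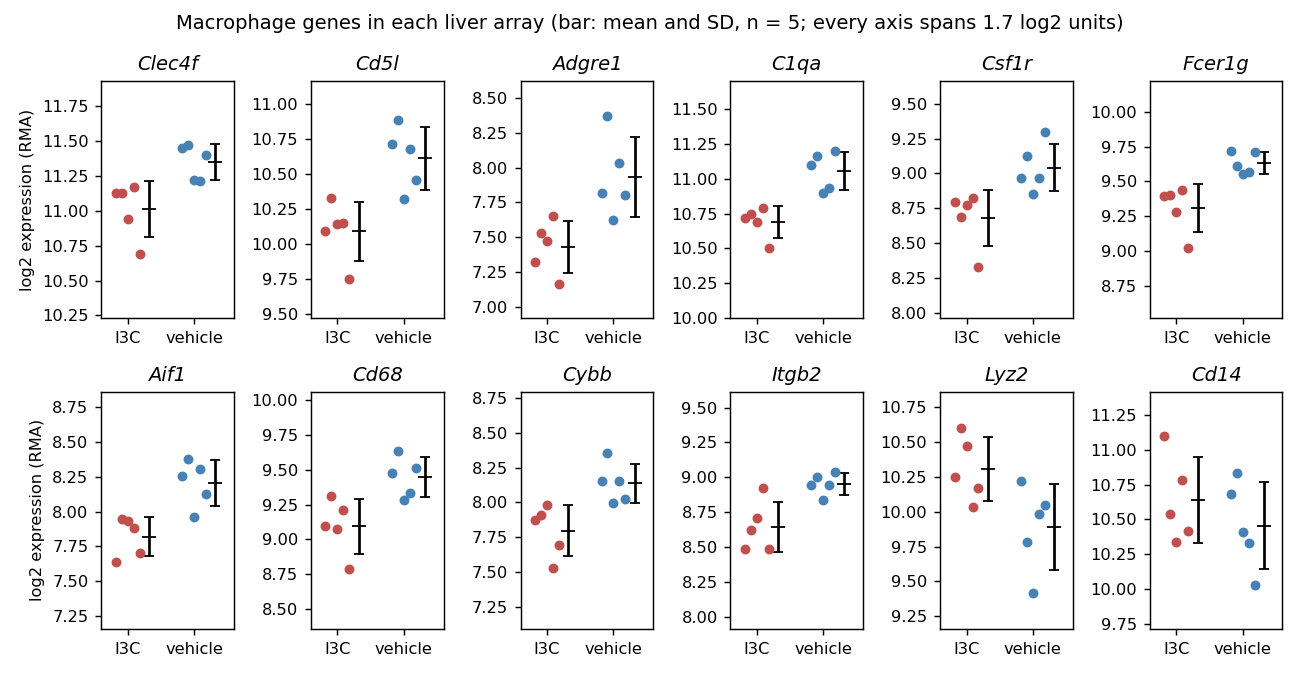
Log2 expression (RMA) of 12 members in every array, I3C in red and vehicle in blue, with the mean and SD of each group of 5. Each panel spans the same 1.7 log2 units. The I3C arrays sit below the vehicle arrays without overlap in Clec4f, C1qa, Csf1r, Fcer1g, Aif1 and Cybb, and the order is the other way in the means of Lyz2 and Cd14.

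Among the general myeloid genes 2 of 20 fell, 17 had a lower mean and the median difference was -0.20. Csf1r, the receptor for the growth factor that keeps macrophages alive, measured 8.79, 8.69, 8.77, 8.82 and 8.33 in I3C livers, against 8.97, 9.12, 8.85, 8.97 and 9.29 in vehicle livers. The groups did not overlap, and the difference of -0.36 ± 0.11 (SE, n = 5 per group) did not pass (limma adjusted p = 0.0828).

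All 4 genes of Fc receptors and signalling adaptors were lower, and 1 fell. Fcer1g, the common gamma chain through which Fc receptors signal, measured 9.40, 9.40, 9.28, 9.44 and 9.02 in I3C livers, against 9.72, 9.61, 9.55, 9.57 and 9.71 in vehicle livers. The groups did not overlap. Fcer1g fell by 0.32 ± 0.08 (SE, n = 5 per group, limma adjusted p = 0.0447), a 1.25-fold lower level, and it missed the threshold when any 1 of the 10 arrays was left out (adjusted p of 0.051 to 0.108). Tyrobp, the DAP12 adaptor, averaged 7.98 ± 0.16 in I3C and 8.22 ± 0.13 in vehicle livers (SD, n = 5 each), a difference of -0.24 ± 0.09 (SE, limma adjusted p = 0.187). Fcgr2b, the inhibitory IgG receptor, averaged 10.29 ± 0.10 in I3C and 10.56 ± 0.16 in vehicle livers, a difference of -0.27 ± 0.08 (limma adjusted p = 0.101), which passed without vehicle 5 (-0.33, adjusted p = 0.0156). Fcgr1a, the high-affinity IgG receptor, differed by -0.15 ± 0.08 (limma adjusted p = 0.352).

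Of the 2 scavenger and pattern receptors 0 passed limma, also with no adjustment (0 at an unadjusted p under 0.05). Mrc1, the mannose receptor, averaged 9.85 ± 0.18 in I3C and 10.02 ± 0.20 in vehicle livers (SD, n = 5 each), and the interval of its difference ran from -0.40 to 0.06. Cd14, the co-receptor for bacterial lipopolysaccharide, measured 11.10, 10.54, 10.34, 10.78 and 10.42 in I3C livers, against 10.68, 10.83, 10.41, 10.33 and 10.03 in vehicle livers. The groups overlapped through most of their range, and the difference of 0.18 ± 0.16 (SE, n = 5 per group, limma adjusted p = 0.70) had an interval of -0.18 to 0.53. Hepatocytes can also make Cd14, and sinusoidal endothelium also carries Mrc1 and Fcgr2b, so these members are not macrophage-specific in liver.

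Of the 4 lysosomal and phagosomal members 0 passed limma, with 1 lower and 1 higher at an unadjusted p under 0.05. Cd68, a lysosomal glycoprotein of macrophages, measured 9.10, 9.31, 9.07, 9.21 and 8.79 in I3C livers, against 9.48, 9.63, 9.28, 9.33 and 9.51 in vehicle livers. I3C 2 lay just above vehicle 3, and the difference of -0.35 ± 0.10 (SE, n = 5 per group) did not pass (limma adjusted p = 0.0696). Ctss, the cysteine protease cathepsin S, averaged 10.75 ± 0.15 in I3C and 10.97 ± 0.20 in vehicle livers (SD, n = 5 each), a difference of -0.21 ± 0.10 (limma adjusted p = 0.348). Laptm5, a lysosomal membrane protein of blood cells, differed by -0.11 ± 0.08 (limma adjusted p = 0.565), and by -0.14 ± 0.08 on its second probe set.

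Lyz2, the lysozyme of macrophages, monocytes and neutrophils, had the highest difference among the members, although Cd14 and Ncf1 were also higher in the mean. Lyz2 measured 10.25, 10.60, 10.47, 10.03 and 10.17 in I3C livers, against 10.22, 9.78, 9.42, 9.98 and 10.05 in vehicle livers. The groups overlapped, with I3C 4 and I3C 5 below vehicle 1. Its difference of 0.41 ± 0.15 (SE, n = 5 per group) did not pass (limma adjusted p = 0.153), and its interval ran from 0.10 to 0.73, which overlaps the intervals of Cd163, Coro1a, Cd53, Cd14 and Ncf1 and lies above those of the other members. That difference stayed positive under every alternative run here, between 0.29 and 0.69. A neighbouring lysozyme gene has carried the same symbol in rat, and that the probe set measures Lyz2 rests on the platform annotation.

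Of the 2 measured subunits of the phagocyte NADPH oxidase, Cybb, the catalytic subunit, measured 7.87, 7.91, 7.98, 7.53 and 7.69 in I3C livers, against 8.16, 8.35, 7.99, 8.15 and 8.02 in vehicle livers. The groups only just parted, and the difference of -0.34 ± 0.10 (SE, n = 5 per group) did not pass (limma adjusted p = 0.071), although it did without vehicle 5 (adjusted p = 0.0494). The second, dimmer probe set of Cybb differed by -0.04 ± 0.08. Ncf1, the cytosolic organiser of the oxidase, averaged 5.95 ± 0.24 in I3C and 5.87 ± 0.21 in vehicle livers (SD, n = 5 each), with an interval of -0.18 to 0.36. Its probe set lay at the 44.0th percentile of all probe sets.

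Both chains of the integrin Mac-1 were lower. Itgb2, the common beta2 chain, measured 8.49, 8.62, 8.71, 8.92 and 8.49 in I3C livers, against 8.94, 9.0, 8.84, 8.94 and 9.04 in vehicle livers. I3C 4 alone reached the vehicle range. The difference of -0.31 ± 0.09 (SE, n = 5 per group) did not pass (limma adjusted p = 0.0662), and without I3C 4 it did, at -0.38 (adjusted p = 0.0155). Itgam, the alpha chain, differed by -0.20 ± 0.08 (limma adjusted p = 0.248).

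Of 5 pan-leukocyte surface and cytoskeletal genes 1 fell, and all 5 had a lower mean. Aif1, which encodes the actin-binding protein IBA1, measured 7.64, 7.95, 7.93, 7.88 and 7.70 in I3C livers, against 8.25, 8.38, 7.96, 8.30 and 8.12 in vehicle livers. The groups parted by the narrow gap between I3C 2 and vehicle 3. Aif1 fell by 0.38 ± 0.09 (SE, n = 5 per group, limma adjusted p = 0.0314), a 1.30-fold lower level. A second, dimmer probe set of Aif1 gave 6.97 ± 0.15 in I3C and 6.87 ± 0.16 in vehicle livers, a difference of 0.10 ± 0.09 with the other sign (limma adjusted p = 0.724), so the call rests on 1 probe set. It was kept in 4 of 10 fits with 1 array left out, and lost without vehicle 1 (adjusted p = 0.0762), vehicle 2 (0.074), vehicle 4 (0.0776), I3C 1 (0.0782), I3C 4 (0.056) or I3C 5 (0.0858). Lcp1, the actin-bundling plastin of leukocytes, differed by -0.20 ± 0.07 (limma adjusted p = 0.18), and Ptprc, the CD45 phosphatase of all nucleated blood cells, by -0.20 ± 0.12 (limma adjusted p = 0.491). Coro1a, a coronin of the leukocyte cortex, and Cd53, a leukocyte tetraspanin, differed by -0.16 ± 0.12 and -0.07 ± 0.10, with intervals that held 0. The second probe set of Ptprc differed by -0.06 ± 0.08.

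The resident markers thus had a lower median difference (-0.34) than the general myeloid genes (-0.20), with ranges of -0.52 to -0.22 and -0.38 to 0.41 that overlap. With the C1q chains counted as general myeloid genes the medians were -0.42 over 4 genes and -0.21 over 23. The fraction that passed was 2 of 7 and 2 of 20. Whether the classes differ was not tested, since the genes were chosen with results of these data known. Measured from the vehicle mean, the resident median of the 5 I3C arrays was -0.30, -0.28, -0.37, -0.23 and -0.64, against 0.01, 0.17, -0.15, -0.09 and -0.01 in the vehicle arrays. The general myeloid median was -0.21, -0.20, -0.14, -0.10 and -0.41 in the I3C arrays, against 0.04, 0.10, -0.06, -0.00433 and -0.02 in the vehicle arrays. The resident median lay below the general one in all 5 I3C arrays and in 3 of the vehicle arrays, vehicle 1, 3 and 4.

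**Figure D3:**
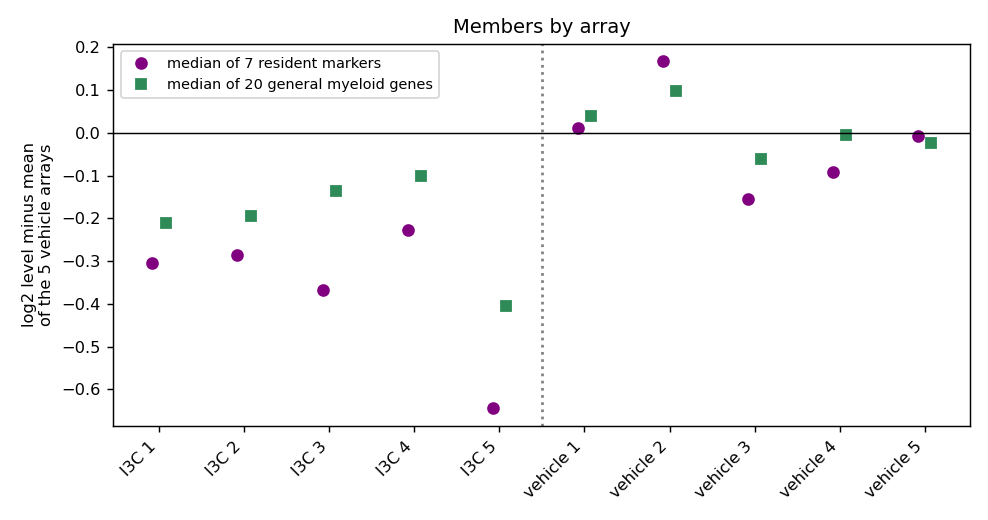
Median over 7 resident markers (circles) and 20 general myeloid genes (squares) of the log2 level minus the mean of the vehicle arrays, for each array, I3C left and vehicle right. I3C 5 is the lowest in both classes (-0.64 and -0.41).

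The sample I3C 5 stood low in most members. It was the lowest of the I3C arrays in 20 of the 27 members (74.1%), and in 18.1% of all genes. Among vehicle livers vehicle 3 was the lowest in 12 members (44.4%, against 14.8% of all genes) and vehicle 2 the highest in 13 (48.1%, against 22.5%). Without I3C 5 the members' median was -0.17, 23 of 27 were lower, and 0 fell past limma, with 12 lower and 1 higher at an unadjusted p under 0.05. The share of all genes that fell in that fit was 2.27%. The number of members that fell was also 0 without vehicle 1 (14 lower and 1 higher at an unadjusted p under 0.05), where 2.34% of all genes fell. It was 1 without vehicle 2 (2.29% of all genes), vehicle 4 (2.46%) or I3C 1 (2.15%), and 2 without I3C 4 (2.17%). It was 3 without I3C 2 (2.17%) or I3C 3 (2.55%), 4 without vehicle 3 (2.35%), and 6 without vehicle 5 (4.92%). The medians of these fits lay between -0.21 and -0.27. The direction was thus kept by most members in each fit with 1 array left out, while the number that fell ran from 0 to 6. No member that fell with all arrays kept its call in all 10 fits, and C1qa kept it in 8.

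The 3′ minus 5′ difference of control probe sets, a measure of RNA quality, differed between the groups as well. GAPDH control probe sets at the 3′ and 5′ ends of the transcript differed by 0.23 ± 0.05 in I3C arrays and 0.45 ± 0.12 in vehicle arrays (SD, n = 5 each, exact two-sided permutation p = 0.00794, the lowest value possible for groups of this size, adjusted to 0.0159 over GAPDH and beta-actin). The same difference for beta-actin was 1.40 ± 0.14 in I3C arrays and 1.59 ± 0.12 in vehicle arrays (SD, n = 5 each, exact two-sided permutation p = 0.0476, also after adjustment). The GAPDH difference ran from 0.16 to 0.29 in I3C arrays and from 0.32 to 0.65 in vehicle arrays, without overlap. Dose and this difference can thus hardly be told apart, and the members' SEs were larger with it as a covariate (for Cd5l 0.20 against 0.12). Calls lost with the GAPDH covariate, here and below, cannot separate dose from RNA quality. With the GAPDH 3′ minus 5′ difference as a covariate 0 members passed limma, where 0.802% of all genes fell. At an unadjusted p under 0.05, 14 were lower and 1 higher. The members' median was -0.33 with the GAPDH covariate, and 25 of 27 were lower. In 21 members the difference was larger in size than without the covariate, whatever its sign. These include Lyz2 (0.69) and Ncf1 (0.39), which were higher, and Cd14. C1qa and Fcer1g were among those with a smaller difference. Cd5l lay at -0.69 ± 0.20 (SE, adjusted p = 0.132), C1qa at -0.33 ± 0.14 (adjusted p = 0.287), Aif1 at -0.47 ± 0.15 (adjusted p = 0.182) and Fcer1g at -0.29 ± 0.14 (adjusted p = 0.358). Cd14 changed sign to -0.36 ± 0.20 (adjusted p = 0.427).

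Genes around the members were read as further lists, beside the 3.11% of all genes that fell and the 3.32% that rose. Of 14 measured ligands, growth factor genes and receptors of macrophages 2 fell (14.3%) and 0 rose, with a median of -0.12. Gas6, a ligand of the TAM receptors that bridge dying cells to macrophages, averaged 9.18 ± 0.42 in I3C and 9.89 ± 0.11 in vehicle livers (SD, n = 5 each) and fell by 0.71 ± 0.16 (SE, limma adjusted p = 0.0229), a call lost without vehicle 1, vehicle 3 or I3C 4 and with the GAPDH covariate (-0.56 ± 0.27, adjusted p = 0.360). Csf2ra, a chain of the GM-CSF receptor, fell by 0.31 ± 0.08 (limma adjusted p = 0.0355), kept its call in 3 of 10 fits with 1 array left out, and lay at -0.09 ± 0.10 with the GAPDH covariate. Of 12 macrophage transcription factors 1 fell and 1 rose. Maf, a factor of macrophages and of sinusoidal endothelium, averaged 10.80 ± 0.30 in I3C and 11.42 ± 0.18 in vehicle livers and fell by 0.63 ± 0.13 (limma adjusted p = 0.0173), a call that was lost with the GAPDH covariate (-0.63 ± 0.23, adjusted p = 0.229). Cebpb, which hepatocytes also express, averaged 10.32 ± 0.13 in I3C and 9.63 ± 0.13 in vehicle livers and rose by 0.69 ± 0.08 (limma adjusted p = 4.89e-04), also with the GAPDH covariate (adjusted p = 0.0382).

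Of 13 phagocyte signalling and oxidase genes 0 passed limma, with 4 lower and 0 higher at an unadjusted p under 0.05, 11 of 13 lower in the mean and a median of -0.13. Over all genes 10.2% were lower and 9.62% higher at that unadjusted p, and 51.4% had a lower mean. Of 14 cytokines and chemokines 0 passed limma, with 3 lower and 0 higher at an unadjusted p under 0.05 and a median of -0.04, and 4 of their probe sets lay below the 25th percentile. Of 8 genes of lipid-associated macrophages 1 rose and 0 fell, with a median of 0.02. That gene was Fabp5, a fatty acid binding protein found in many cells, which averaged 11.37 ± 0.29 in I3C and 9.61 ± 0.67 in vehicle livers (SD, n = 5 each) and rose by 1.77 ± 0.26 (SE, limma adjusted p = 0.00189), and by 2.82 ± 0.23 with the GAPDH covariate (adjusted p = 1.84e-04).

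Markers of other cell types were read beside the members. Over all genes 3.11% fell and 3.32% rose past limma, and 10.2% were lower and 9.62% higher at an unadjusted p under 0.05. Of 9 sinusoidal endothelial markers 0 passed limma (1 lower and 0 higher at an unadjusted p under 0.05), 8 of 9 were lower, and the median was -0.11. Lyve1, a hyaluronan receptor of these cells, differed by -0.26 ± 0.09 (SE, limma adjusted p = 0.15) and Kdr, a VEGF receptor, by -0.11 ± 0.07 (limma adjusted p = 0.557). The summed linear level of the 9 ran from 5439 to 6206 in I3C and from 6099 to 6708 in vehicle livers. Of 10 stellate cell markers 3 fell and 1 rose, with a median of -0.13. Lrat, which esterifies retinol for storage, fell by 0.51 ± 0.10 (limma adjusted p = 0.00889), the secreted proteins Ecm1 by 0.45 ± 0.08 (limma adjusted p = 0.00854) and Colec11 by 0.34 ± 0.07 (limma adjusted p = 0.0171). Rgs5, a regulator of G protein signalling found in pericytes, rose by 1.33 ± 0.18 (limma adjusted p = 8.65e-04). With the GAPDH covariate these 4 did not pass, at -0.53 ± 0.16 for Lrat (SE, adjusted p = 0.164), -0.32 ± 0.14 for Ecm1 (adjusted p = 0.292), -0.44 ± 0.12 for Colec11 (adjusted p = 0.104) and 1.19 ± 0.30 for Rgs5 (adjusted p = 0.0927). The summed level of the 10 ran from 4955 to 5820 in I3C and from 6041 to 7261 in vehicle livers, without overlap between the groups, and 6 of the 10 markers did not pass. The part of these markers in the members' difference was not tested. The members' own sum ran from 15572 to 19420 in I3C and from 19391 to 23878 in vehicle livers.

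Lymphoid and other myeloid markers had medians near 0. Of 13 T and NK cell genes, 5 B and plasma cell genes, 6 neutrophil genes, 5 monocyte genes and 9 dendritic cell and class II genes 0 passed limma, with 2, 1, 0, 1 and 0 lower and 0 higher at an unadjusted p under 0.05. Over all genes 10.2% were lower and 9.62% higher at that unadjusted p. The medians of these lists lay at 0.00298, 0.04, 0.00929, 0.01 and -0.04. The summed levels overlapped between the groups in each list: neutrophil markers ran from 173 to 190 in I3C and from 166 to 212 in vehicle livers, and monocyte markers from 370 to 458 in I3C and from 426 to 519 in vehicle livers. RT1-Ba, a class II alpha chain named after its value was seen, was the farthest gene from 0 in its list, at 9.93 ± 0.62 in I3C and 8.56 ± 2.50 in vehicle livers (SD, n = 5 each), a difference of 1.37 ± 0.92 (SE, limma adjusted p = 0.55). Of the neutrophil markers 4 of 6 lay below the 25th percentile of probe sets. The lowest member lay at the 44.0th percentile, and many of the T and NK, B and plasma cell, neutrophil and monocyte markers lay below that level. A median near 0 in these lists therefore does not show that the cells were unchanged. Of 7 hepatocyte markers, with a median of -0.0059, 1 rose. The apolipoprotein gene Apoa1 rose by 0.38 ± 0.07 (SE, limma adjusted p = 0.00883), and did not pass with the GAPDH covariate, at 0.42 ± 0.12 (adjusted p = 0.126). Of 6 cholangiocyte markers 0 passed limma, with 1 lower and 0 higher at an unadjusted p under 0.05.

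**Figure D4:**
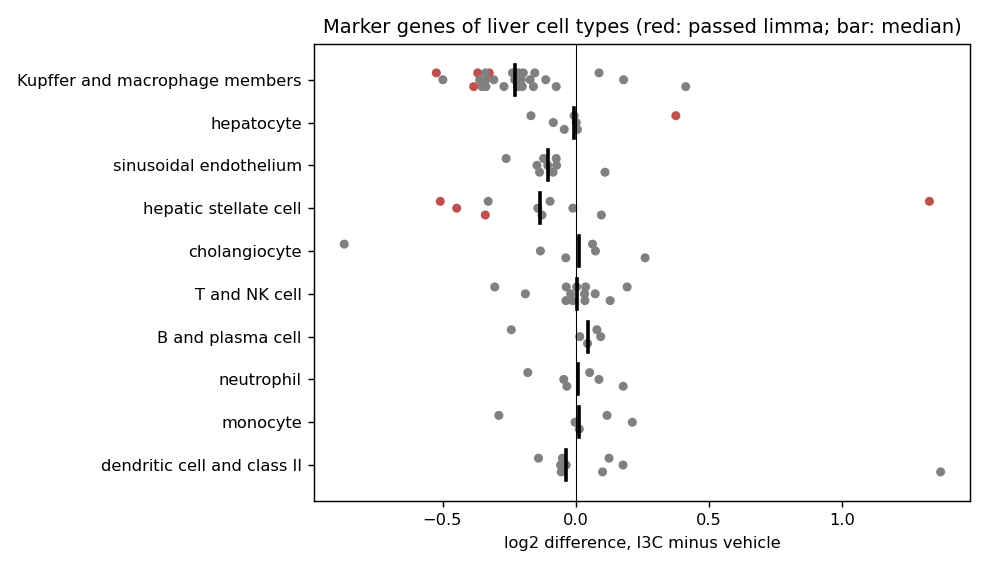
Log2 difference (I3C minus vehicle) of every measured member and of the markers of other liver cell types. Each point is 1 gene, red where it passed limma, and the bar is the median of the list. The members' median is -0.23, those of endothelium and stellate cells are -0.11 and -0.13, and the lymphoid, neutrophil and monocyte medians lie near 0.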

How the data were processed

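The authors deposited log2 expression values for 31099 probe sets on rat 3′ arrays, made with RMA per the submitters' processing notes, which name no version. The method evens the arrays out, so a shift of all genes would be removed, and it compresses folds. Probe sets were named from the platform annotation, with symbols updated by Entrez ID through RefSeq (GRCr8, names and promoter windows only). Of 31042 probe sets that are not controls, 20826 carry 1 gene, 436 several and 9780 none here. Groups came from the sample titles. I3C minus vehicle was fitted with limma 3.58.1 in R 4.3.3 (lmFit, eBayes, prior degrees of freedom 4.6). Tests were two-sided, and p-values were adjusted by Benjamini-Hochberg over the 31042. ± after a difference is its SE. Permutation tests used SciPy 1.17.1. Simulated arrays with built-in changes served to test the code. The rule for named genes took all members and, from each other list, up to 4 genes that passed, or the 2 brightest where fewer than 2 did. Those brightest genes are printed for endothelium only, which shares members. Members and lists were chosen with earlier results of these data known. Same-numbered samples did not deviate together (correlations of -0.28 to 0.22), so they were not treated as pairs. Summed levels add 2 to the power of each log2 value. Depth does not apply to arrays, and 5 per group limits precision. The alternatives are given at the end.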

Additional observations from a re-analysis of the deposited data

Results flagged for a closer look

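Single arrays stood far from the rest of their group, by Dixon's ratio of gap to range, in 6 of 54 groups of 5 values. The rule flags about 1 in 20 groups of independent normal values. The members share the same 10 arrays, so these groups are not independent, and the share over all genes was not computed. I3C 5 was far below the other I3C livers in C1qb (9.60), C1qc (9.64) and Csf1r (8.33). I3C 4 was far above the others in Itgam (6.25). Vehicle 5 was far below the other vehicle livers in Laptm5 (8.47) and Cd53 (8.08).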

How the results depend on the processing

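Against 4 members that fell, where 3.11% of all genes fell, 8 of 25 measured fell with only probe sets above the median level (5.49% of all genes), 9 with array weights (4.75%), 2 with the replicate block (2.12%), 2 with the beta-actin covariate (1.52%), and 0 with the GAPDH covariate (0.802%), without moderation of the variance (1.77%) and at an adjusted p threshold of 0.01 (1.29%). For the resident markers, 2 of which fell, the number was 4 with array weights, 1 with the beta-actin covariate, 1 with the C1q chains counted as general myeloid, and 0 with the GAPDH covariate, without moderation and at the 0.01 threshold. For the general myeloid genes, 2 of which fell, it was 5 with the level filter, 5 with array weights, 1 with median centring, 1 with probe sets averaged per gene, 1 with the beta-actin covariate, and 0 with the replicate block, the GAPDH covariate, no moderation and the 0.01 threshold. The same numbers with 1 array left out ran from 0 to 6, from 0 to 3 and from 0 to 3. A stricter threshold lowers a count by construction, and the cause of the other moves was not tested. The median of the general myeloid genes was -0.32 with the GAPDH covariate, and the medians of all members, of resident markers and of general genes stayed below 0 under each alternative, between -0.17 and -0.33, -0.27 and -0.48, and -0.15 and -0.32. No member rose under any of them. Signs turned for Cd14 (-0.36) and RT1-Ba (-0.86) with the GAPDH covariate, for Ncf1 with 1 array left out (-0.0061 to 0.17) and for Cd53 (-0.14 to 0.00191). The replicate block, tried because the groups share numbers, ended the calls of C1qa (adjusted p = 0.0731), Fcer1g (adjusted p = 0.108) and Aif1 (adjusted p = 0.0616), and, outside the members, of Maf (adjusted p = 0.068), Csf2ra (adjusted p = 0.0909) and Colec11 (adjusted p = 0.0651), and Adgre1 passed under it (adjusted p = 0.0342). No sample matched its own number best. Outside the members, the beta-actin covariate ended the calls of Gas6, Csf2ra, Maf, Lrat and Apoa1. Without moderation of the variance those of Gas6, Csf2ra and Maf were lost. The deposited values carry no detection call, so how far a dim probe set lies above background is unknown.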
